A study of Homo sapiens with 16 samples.

Results

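The genes described here encode 28 proteins of the small ribosomal subunit, chosen by symbol from the 26485 genes of the count files: RPSA, RPS2, RPS3, RPS3A, RPS4X, RPS6, RPS7, RPS9, RPS10, RPS12, RPS13, RPS14, RPS15, RPS15A, RPS16, RPS18, RPS19, RPS20, RPS21, RPS23, RPS24, RPS25, RPS26, RPS27, RPS27A, RPS28, RPS29 and FAU. The cells were MDA-MB-231, a line from a human breast cancer without hormone receptors or amplified HER2, which the source label calls a xenograft cell line. Ribosome footprints (mRNA pieces that a ribosome shields from nuclease) and total RNA were each counted in 8 libraries, 2 per condition. All cells carried CRISPR interference (CRISPRi, repression of a locus by a guide RNA and a silencing protein) and an expression construct. The control cells had a guide against eGFP and a control construct. The construct cells had the eGFP guide and overexpressed tRNA-Ile-UAU. The knockdown cells had a guide against tRNA-Ile-GAU and the control construct, and the double modulation cells had that guide together with the tRNA-Ile-UAU construct. No drug was given, and the labels do not say whether a line was a clone or a pool, or whether replicates came from separate cultures, so p-values measure the spread between these libraries. Each tRNA level goes with 1 guide and 1 set of cells here, so the effects of guide, tRNA and cell line cannot be told apart. By its design text, the series concerns how ribosomes occupy messages rich in isoleucine codons; codon content was not analysed here.

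The small subunit binds the mRNA, scans to the start codon and holds the decoding site, where the anticodon of a tRNA is checked against the codon. Its proteins are made in near equal amounts, and their mRNAs are known for a run of pyrimidines at the very start (a terminal oligopyrimidine, or TOP, sequence) through which the mTOR pathway controls their translation. Human ribosomal protein genes also have many processed pseudogenes, which share sequence with the parent mRNA.

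Starts are shown for 11 of these genes. They are the 5 that passed a test and the 6 with the highest or lowest control ratio of footprints to RNA. No result below was tested by type of start. Each line gives 10 bases before and 15 bases from the start annotated by RefSeq in GRCh38.p14, 5′ to 3′ on the gene's strand. Capitals mark the unbroken run of pyrimidines that begins at the first base of the transcript.
RPS15 (chr19:1438386-1438410, plus strand): aggcgcggacCaaagcgatctcttc
RPS16 (chr19:39435935-39435959, minus strand): ccctagctttCCTTTTCCggttgcg
RPS18 (chr6:33272065-33272089, plus strand): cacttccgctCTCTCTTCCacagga
RPS3 (chr11:75399508-75399532, plus strand): cgagccacttCCTTTCCTTTCagcg
RPS4X (chrX:72277234-72277258, minus strand): ctccagccccaatttctacgcgcac
FAU (chr11:65122120-65122144, minus strand): tcgcttcttcCTCTTTCTCgactcc
RPS13 (chr11:17077653-17077677, minus strand): ctctcgctctCCTTTCgttgcctga
RPS14 (chr5:150449725-150449749, minus strand): ccctcccactCTCTCTTTCCggtgt
RPS12 (chr6:132814559-132814583, plus strand): cggatgaggcCTCTTTCCCTgccgc
RPS6 (chr9:19380222-19380246, minus strand): gaagttggccCTCTTTTCCgtggcg
RPS7 (chr2:3575250-3575274, plus strand): cgccctcctcCTCgcgctgtttccg

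Of the 28 genes, 25 were in the table of starts. A C followed by at least 4 pyrimidines stood at the annotated start of 19 of them (76.0%), against 1404 of all 27305 genes in that table (5.14%). RPS16, RPS18 and RPS3 had such a start, while RPS15 and RPS4X did not at the position RefSeq annotates. The letters CTTCCG, the core bound by ETS factors, searched on both strands of the 300 bases around the start, were found in 18 of the 25 (72.0%) and in 6178 of all genes (22.6%). TATAA in the 50 bases before the start was found in 4 of the 25 and in 1627 of all genes (5.96%). These matches describe letters in a window and are not evidence of binding.

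Counts on genes ranged from 358340 to 938909 in the footprint libraries and from 2512247 to 5446599 in the total RNA libraries, and the 28 genes held 2402 to 7091 and 14126 to 48286 of them. Footprint depth differed by guide, at 358340 to 607919 with eGFP and 639320 to 938909 with tRNA-Ile-GAU. Alignments of reads that fit more than 1 position were 97.0 to 98.8% of all alignments in footprints and 97.2 to 98.1% in total RNA. These were not counted, and the values are shares of alignments and not of reads. The line's defining markers VIM, CD44, AXL, CAV1, EGFR and MSN were present, SPARC was near 0, and in total RNA ESR1, PGR and CDH1 stayed at or under 1.19 CPM (counts scaled to a fixed library total, with TMM factors). The other markers listed as low or absent in this line were higher there: KRT8 at 90.2 to 225 CPM, EPCAM at 13.2 to 21.8 and GATA3 at 3.34 to 6.33. In footprints EPCAM had 10.1 to 21.4 CPM, GATA3 5.05 to 14.3 and KRT8 188 to 242. The listed markers of immune, endothelial and fibroblast cells summed to 12.3 to 26.5 CPM in total RNA and 21.0 to 47.0 CPM in footprints. CD3E, CDH5 and DCN among them were at 0 in all 16 libraries, and PTPRC and VWF at or under 1.70 CPM. In total RNA, COL1A1 had 2.77 to 10.7 CPM, PECAM1 3.88 to 10.3, PDGFRB up to 4.01 and CD14 up to 1.84, and in footprints CD14 reached 17.1 CPM. The part of such cells in the results was not tested. In total RNA, replicate 1 of the double modulation stood apart in these genes, as described below, so total RNA and ratio comparisons are also given without it; those of the knockdown and the construct with control, which do not include it, were refitted without it after the data were seen.

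Footprints were countable for most of the set. RPS3A, RPS10, RPS26, RPS27 and RPS28 had no count in any footprint library, although RPS3A had 367 to 440 CPM in the total RNA libraries. RPS27A, which encodes a ubiquitin fused to a small-subunit protein, had 0 to 3 footprint counts. The other 22 passed the filter on low counts and were tested. RPS10, whose protein is a ubiquitination site on stalled ribosomes, had 2 to 8 counts in total RNA and was the only one of the 28 not tested there. RefSeq names 74 pseudogenes for RPSA, 59 for RPS26 and 4 each for RPS9 and FAU, and reads that fit a gene and its copies equally are among the uncounted alignments. Over the 28 genes, the number of pseudogenes and the control footprint level (CPM, not per length) had a Spearman rho of -0.594, and with the control RNA level -0.118. The part of pseudogenes in these levels was not tested. Levels of these genes are uncertain, since neither uncounted alignments nor mRNA lengths were corrected for. The tests below therefore compare conditions and not genes.

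**Figure D1:**
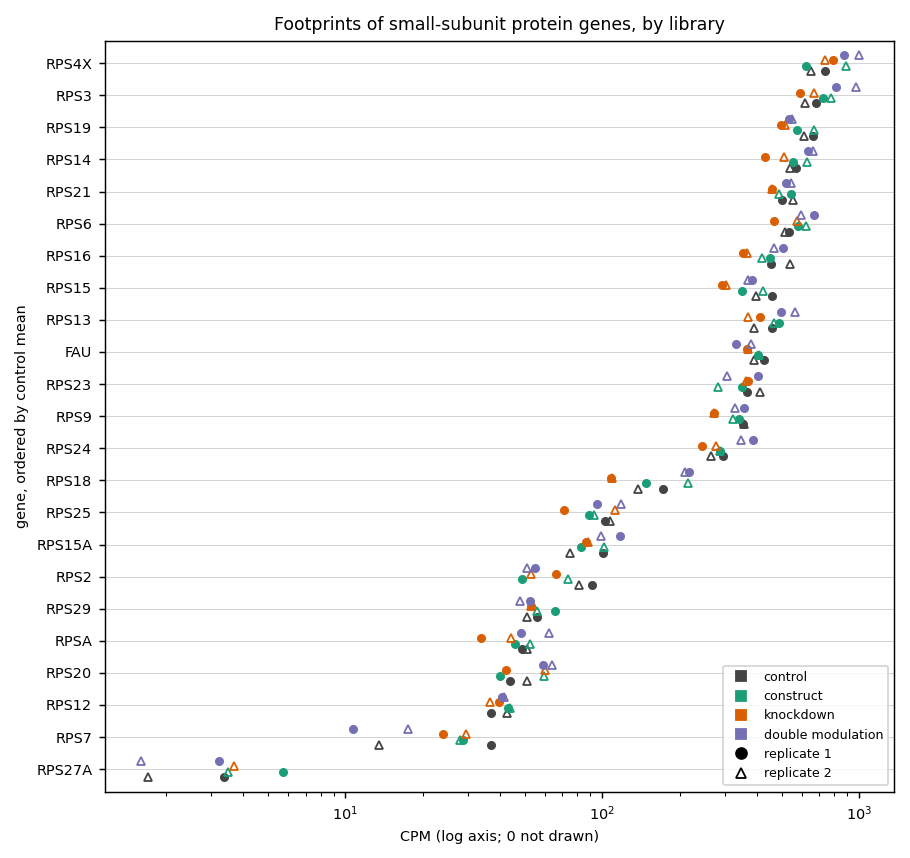
Footprint CPM (log axis) of the 23 small-subunit protein genes with any footprint count, in each of the 8 libraries; colours are conditions, filled circles replicate 1 and open triangles replicate 2. The knockdown libraries are the lowest for RPS15, RPS16 and RPS18, and the double modulation libraries the highest for RPS3.

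As a share of all footprint counts, the set was lowest in the knockdown and highest in the double modulation. The 28 genes held 0.702% and 0.667% of the counts in the control libraries, 0.670% and 0.726% with the construct, 0.593% and 0.629% in the knockdown and 0.755% and 0.763% in the double modulation. In this share, neither knockdown library overlapped any other condition, nor did either double modulation library. The median over the 22 tested genes of the log2 deviation from each gene's mean over the libraries was also taken. By this median the double modulation, at 0.14 and 0.09, overlapped with construct replicate 2, at 0.11. The knockdown, at -0.22 and -0.11, was still the lowest. The share and this median are scores over chosen genes and were not tested.

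In the knockdown, footprints of RPS15 and RPS16 fell. Both proteins sit in the head of the subunit: RPS15 lies close to the decoding site and RPS16 reaches with its tail towards the tRNA in the peptidyl site. RPS15 (19:1438396-1440495) had 460 and 399 CPM in the control libraries and 292 and 305 in the knockdown libraries. It had 349 and 421 with the construct and 383 and 369 in the double modulation, so the knockdown pair lay below the 6 others. The log2 fold change was -0.53 ± 0.13 (SE, n = 2 against 2 libraries; edgeR's quasi-likelihood test, Benjamini-Hochberg adjusted p = 0.0133), a 1.44-fold lower level.

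RPS16 (19:39433137-39435949) had 455 and 539 CPM in the control libraries and 353 and 366 in the knockdown libraries. With the construct it had 452 and 418, and in the double modulation 504 and 467, so that again the knockdown pair was the lowest. Its log2 fold change was -0.47 ± 0.12 (edgeR adjusted p = 0.0308). These 2 were the only ones called of 22, all lower, against 0.651% of all 8143 genes called lower and 0.454% called higher. The median over the 22 was -0.13 (3 higher and 19 lower), against 0.00 over all genes tested, and the fold changes ran from -0.53 to 0.13. Several others lay at the same size without passing: RPS18, a head protein near the tRNA in the peptidyl site, was at -0.51 ± 0.18 (edgeR adjusted p = 0.19), and RPS2, at the mRNA entry, at -0.53 ± 0.22 (0.339). Both calls were lost with any 1 of the 4 libraries left out (highest edgeR adjusted p 0.434 for RPS15 and 0.585 for RPS16), by DESeq2 (adjusted p 0.0525 and 0.0654) and with libraries thinned to the shallowest, and that of RPS16 also with no filter (edgeR adjusted p = 0.0504).

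**Figure D2:**
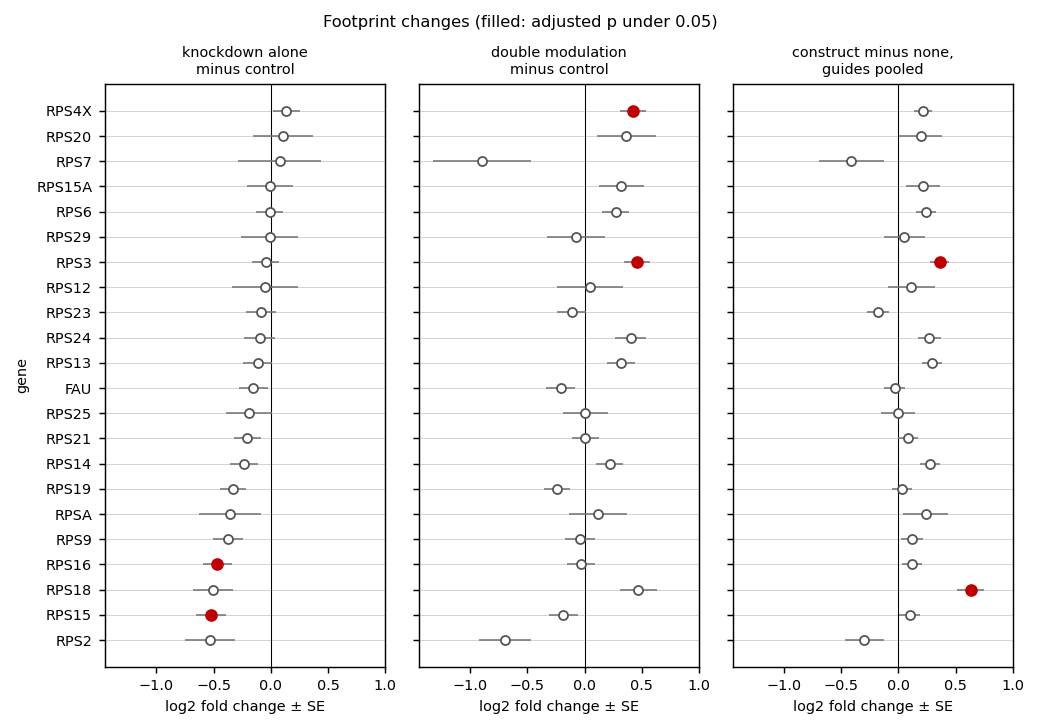
Log2 fold change in footprints with its SE for the 22 tested genes, in the knockdown against control, the double modulation against control and the construct against none with guides pooled; filled points passed at an adjusted p under 0.05. RPS15 and RPS16 are filled on the lower side of the knockdown panel, and RPS3, RPS4X and RPS18 on the higher side of the others.

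In the double modulation, footprints of RPS3 and RPS4X rose against the same control libraries. RPS3 lines the channel where mRNA enters the subunit, and RPS4X is the X-linked form of a protein of the subunit's body. RPS3 (11:75399518-75422302) had 679 and 617 CPM in the control libraries and 813 and 975 in the double modulation. With the construct alone it had 723 and 777 and in the knockdown 587 and 669, so both double modulation libraries lay above the 6 others. The log2 fold change was 0.46 ± 0.11 (edgeR adjusted p = 0.0102).

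RPS4X (X:72272042-72277248) had 738 and 653 CPM in the control libraries and 870 and 996 in the double modulation. The construct libraries had 623 and 887 and the knockdown libraries 790 and 737, so the double modulation overlapped with 1 construct library and not with the control. Its log2 fold change was 0.42 ± 0.11 (edgeR adjusted p = 0.0255). Of the 22 genes these 2 were called, both higher, against 0.528% of all genes called higher and 1.4% called lower. The median was 0.03 (13 higher, 9 lower), against 0.01 over all genes, with a range from -0.90 to 0.47. RPS3 lost its call without control replicate 1, control replicate 2 or double modulation replicate 2 (highest edgeR adjusted p 0.336), and RPS4X without the same 3 (0.475) and by DESeq2 (adjusted p = 0.123).

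Among genes not called against control, RPS7 and RPS2 had the footprint fold changes farthest from 0, both in the double modulation. RPS7, known for binding MDM2 outside the ribosome, had 37.1 and 13.6 CPM in control, 28.6 and 27.9 with the construct, 24.1 and 29.4 in the knockdown and 10.7 and 17.6 in the double modulation. These rest on 8 to 24 counts a library, and its 2 control libraries lie on either side of most others. Its log2 fold change was -0.90 ± 0.43 (edgeR adjusted p = 0.379), and its interaction, defined below, was -1.13 ± 0.57 (edgeR adjusted p = 0.863). RPS2 had 90.9 and 81.4 CPM in control, 48.6 and 73.4 with the construct, 66.2 and 52.6 in the knockdown and 54.6 and 51.1 in the double modulation, with the control pair above all others. Its log2 fold change was -0.70 ± 0.23 (edgeR adjusted p = 0.0904).

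Pooled over both guides, the tRNA-Ile-UAU construct went with higher footprints of RPS18 and RPS3. RPS18 (6:33272075-33276511) had 149 and 217 CPM with the construct in eGFP cells and 217 and 209 with it in knockdown cells. Without the construct it had 172 and 137 in eGFP cells and 108 and 109 in knockdown cells. Construct replicate 1 lay below control replicate 1, so the pooled groups overlapped. The log2 fold change was 0.63 ± 0.12 (n = 4 against 4 libraries, edgeR adjusted p = 0.000349), a 1.55-fold higher level. In eGFP cells alone the construct's change was 0.29 ± 0.18 (edgeR adjusted p = 0.987). The interaction of RPS18, defined below, was 0.69 ± 0.24 (edgeR adjusted p = 0.665). RPS3 had a log2 fold change of 0.36 ± 0.08 (edgeR adjusted p = 0.00775), and its 4 libraries with the construct (723 to 975 CPM) lay above the 4 without it (587 to 679).

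These were 2 of 22, against 0.135% of all genes called higher and 0.295% called lower, and the median was 0.12 (17 higher, 5 lower; 0.00 over all genes). RPS18 lost its call without control replicate 2 or construct replicate 2 (highest edgeR adjusted p 0.452), and RPS3 without control replicate 2, construct replicate 2, knockdown replicate 1 or double modulation replicate 2 (0.31).

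No footprint change of the set was called for the construct alone, for the interaction or for the guide with constructs pooled. Of all genes, 5.02% were at an unadjusted p under 0.05 for the construct alone, 5.83% for the interaction and 13.4% for the guide. For the construct alone, edgeR called 0 of 22 (1 at an unadjusted p under 0.05, 0 by DESeq2), with 0.0246% of all genes called higher and 0 lower, and the median was 0.07 (12 higher, 10 lower). For the interaction (how far the construct's effect in knockdown cells exceeded its effect in eGFP cells), edgeR called 0 (6 at an unadjusted p under 0.05, 0 by DESeq2), with 0.0614% of all genes called lower and 0 higher. Its median was 0.27 (18 higher, 4 lower), and the lowest adjusted p was 0.239, for RPS16, at a difference of 0.64 ± 0.18. For the guide, edgeR called 0 (4 at an unadjusted p under 0.05, 0 by DESeq2), with 0.688% of all genes called higher and 1.99% lower, and a median of -0.07 (9 higher, 13 lower). RPS19, known for its mutation in Diamond-Blackfan anaemia, came closest there, at -0.27 ± 0.08 (edgeR adjusted p = 0.0513). It passed with DESeq2's size factors, with scaling that left out ribosomal protein genes, and with the replicate numbers as a block, where RPS15 passed too.

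Total RNA of the set differed widely between the 2 double modulation libraries. Replicate 1 was above replicate 2 for 25 of the 27 tested genes, with a median log2 gap of 1.51 and a range from -0.20 to 3.41. Over all 11720 genes the median gap was -0.03 and the median size of a gap 0.292. That size was 0.153 in control, 0.171 with the construct and 0.176 in the knockdown. Over all genes the replicates had an r of 0.958 in the double modulation and 0.983 to 0.986 in the other conditions. The double modulation libraries thus also differed more than other pairs over all genes. In the other conditions the median gap of the set was 0.07 (control), -0.35 (construct) and 0.19 (knockdown), and footprint gaps had a median size of 0.104 to 0.164. The set held 0.887% and 0.611% of counts in the 2 double modulation libraries, against 0.631% in both control libraries, 0.546% and 0.596% with the construct and 0.706% and 0.677% in the knockdown.

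**Figure D3:**
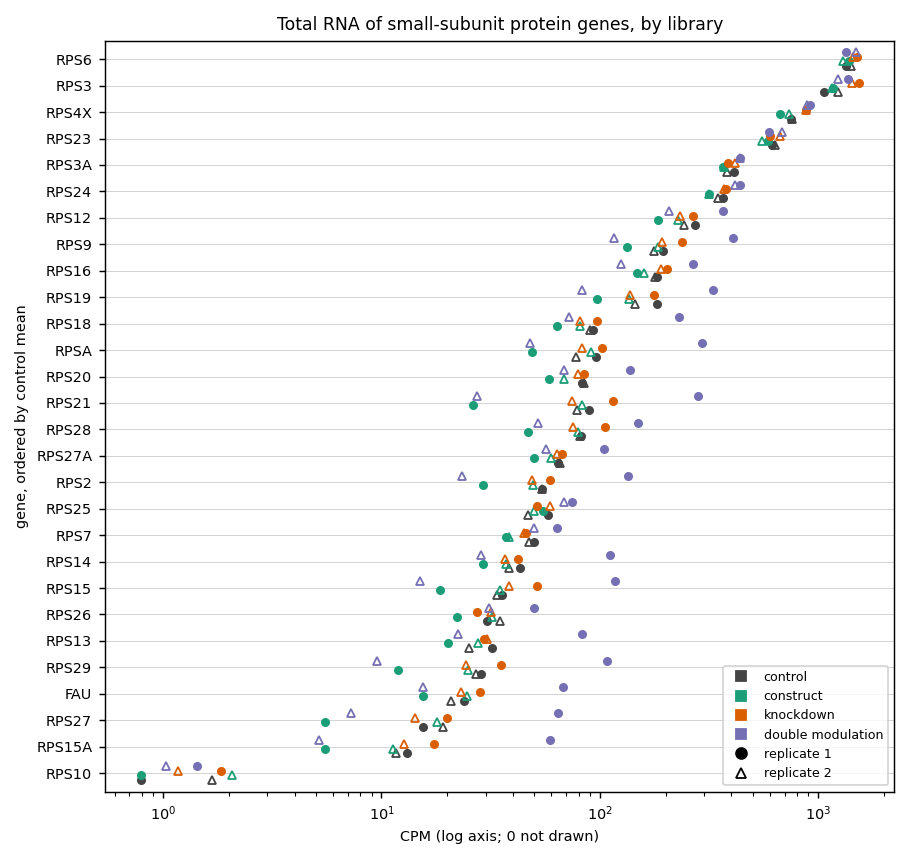
Total RNA CPM (log axis) of the 28 genes in each of the 8 libraries; colours are conditions, filled circles replicate 1 and open triangles replicate 2. For 16 genes, RPS15, RPS21 and RPS29 among them, the 2 double modulation libraries lie over 1 log2 unit apart, while for RPS3, RPS4X and RPS6 they lie together.

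The genes fell along a range in this gap, described here in classes whose bounds (0.4 and 1 on the log2 scale) were chosen after the values were seen. RPS3, RPS3A, RPS4X, RPS6, RPS7, RPS23, RPS24 and RPS25 had gaps under 0.4. RPS12, RPS26 and RPS27A lay between 0.4 and 1, and the other 16 were over 1. RPS29, a zinc-binding protein of the head, had 107 CPM in replicate 1 and 9.56 in replicate 2. On the log2 CPM scale, which used a prior count of 2, this was a 10.7-fold difference. It had 28.5 and 27.0 CPM in control, 11.9 and 25.0 with the construct and 35.3 and 24.4 in the knockdown. RPS21 had 280 and 27.4 CPM in the double modulation, 88.7 and 78.8 in control, 26.1 and 82.5 with the construct and 115 and 74.4 in the knockdown. RPS15 had 118 and 15.0 CPM in the double modulation, 35.6 and 33.7 in control, 18.6 and 35.1 with the construct and 51.5 and 38.2 in the knockdown. For these 3 genes the control lay between the double modulation replicates.

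RPS3 lay in the class with the smallest gaps, with 1373 and 1225 CPM in the double modulation, 1067 and 1232 in control, 1162 and 1157 with the construct and 1527 and 1428 in the knockdown. Across the 27 genes, the gap in the double modulation and that in the construct cells had a Pearson r of -0.90 and a Spearman rho of -0.912. With the gap in the knockdown cells these were 0.847 and 0.836, and with that in the control 0.229 and 0.348. Against the control RNA level (log2 CPM) they were -0.708 and -0.692. Over all 11720 genes, the double modulation gap had a Pearson r of -0.422 with the construct gap, 0.356 with the knockdown and 0.0713 with the control. The points share their libraries and scaling, so these are descriptions. In footprints the median gap of the double modulation was -0.03, and over 22 genes its footprint and RNA gaps had an r of 0.134 and a rho of 0.0198.

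**Figure D4:**
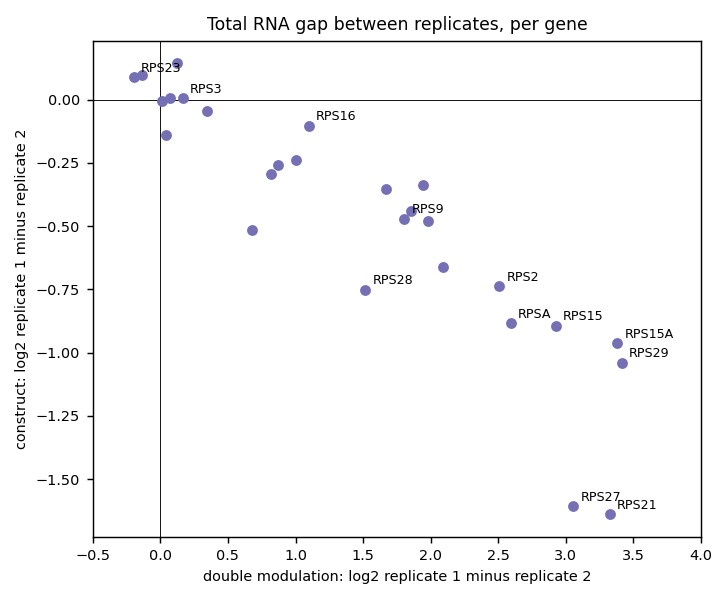
Total RNA log2 gap between replicates 1 and 2 in the construct cells (vertical) against that in the double modulation (horizontal), 1 point for each of the 27 tested genes. Points run from RPS23 and RPS3 near 0 on both axes to RPS21 and RPS27 at the lower right.

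Large-subunit protein genes differed between these libraries in the same direction, and the medians of other genes with TOP starts stayed near 0. The median deviation of the set from its mean over the 8 RNA libraries was 0.91 and -0.43 in the double modulation, and -0.50 in construct replicate 1. For 46 large-subunit protein genes it was 0.74 and -0.21 in the double modulation and -0.43 in construct replicate 1. For 15 TOP genes outside the ribosome it was -0.05 and 0.09, for 41 assembly factors of the small subunit -0.07 and 0.09, and for 20 initiation factors that bind it -0.02 and 0.10. The markers listed as low or absent in this line also differed between the 2 double modulation libraries of total RNA. They summed to 243 CPM in replicate 1 and 108 in replicate 2, against 120 to 167 in the 6 others, and most of this was KRT8, at 225 and 90.2 CPM. In footprints these sums were 219 and 259 CPM. The part of these markers, of library preparation or of RNA quality in the gap was not tested. In bulk samples, fewer cells of a type and less RNA per cell cannot be told apart.

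**Figure D5:**
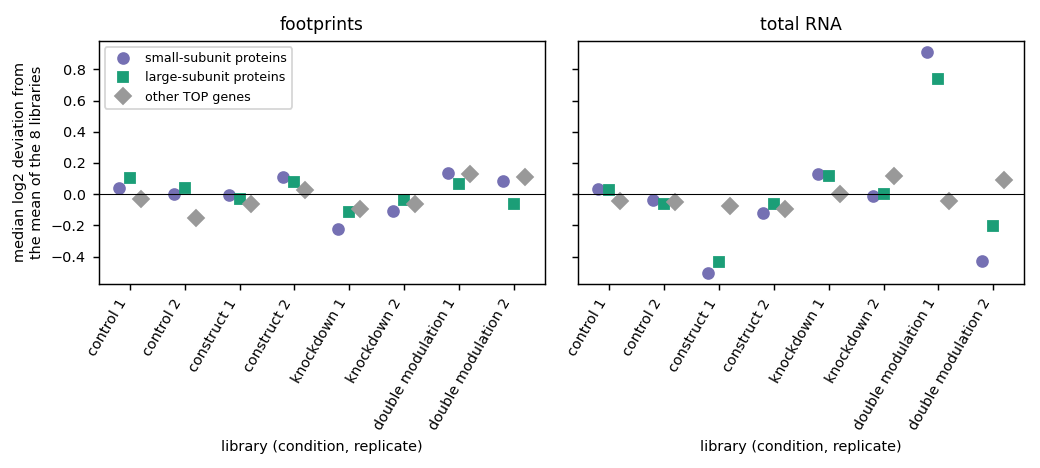
Median log2 deviation from the mean of the 8 libraries of an assay, for small-subunit proteins, large-subunit proteins and 15 other TOP genes, in footprints (left) and total RNA (right). In total RNA the ribosomal protein medians stand at 0.91 and 0.74 in double modulation replicate 1 and the other TOP genes at -0.05.

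With all libraries, edgeR called 0 of the 27 genes in total RNA in any of the 6 comparisons. In the knockdown 2 were at an unadjusted p under 0.05 (0 by DESeq2), the median was 0.07 (18 higher, 9 lower), and 0.0171% and 0.00853% of all genes were called higher and lower. RPS3 was the nearest, at 0.36 ± 0.11 (edgeR adjusted p = 0.424), with both knockdown libraries above both control libraries. Fitted on those 2 groups alone it was the 1 gene called, higher, against 0.718% of all genes. It was also the 1 gene called without double modulation replicate 1, higher, against 0.669% of all genes, with the median at 0.07. With the construct, 1 was at an unadjusted p under 0.05 (0 by DESeq2), the median was -0.28 (2 higher, 25 lower), and 0% of all genes were called either way; without double modulation replicate 1 edgeR called 0 and the median was -0.26. In the double modulation 3 were under it (0 by DESeq2), and the median was 0.34 (27 higher, 0 lower). Of all genes, 0.0171% were called higher and 0.0512% lower. At an unadjusted p under 0.05 were 6.94% of all genes in the knockdown, 1.99% with the construct and 7.62% in the double modulation.

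The double modulation result depended on which library was used. Without replicate 1, 8 genes were called lower (RPS15, RPS16, RPS19, RPS2, RPS21, RPS29, RPS9 and RPSA), against 1.83% of all genes, and the median was -0.35. Without replicate 2, 22 were called higher, against 9.81% of all genes, and the median was 0.87. With both replicates kept and no filter on low counts, 11 were called higher, against 0.505% of all genes. That fit thus holds the 2 libraries that lay apart, as described above.

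For the guide with constructs pooled, all 27 RNA fold changes were above 0, with a median of 0.38 (0.02 over all genes), 5 at an unadjusted p under 0.05 and 2 called higher by DESeq2 (RPS3 and RPS4X, against 0.616% of the genes to which it gave an adjusted p), while by edgeR 0.179% and 0.896% of all genes were called higher and lower. Of all genes, 10.5% were at an unadjusted p under 0.05 for the guide, 2.66% for the interaction and 1.96% for the construct with guides pooled. RPS4X had 881, 882, 915 and 889 CPM in the 4 libraries with the tRNA-Ile-GAU guide. In the 4 with the eGFP guide it had 752, 758, 668 and 735, which did not overlap. Its log2 fold change was 0.29 ± 0.07 (edgeR adjusted p = 0.0784). Without double modulation replicate 1 the median was -0.04 and RPS24, RPS3 and RPS4X were called higher, against 1.62% of all genes, and without replicate 2, 23 were, against 8.73%. For the construct with guides pooled the median was 0.04 (17 higher, 10 lower; 0 at an unadjusted p under 0.05, 0 by DESeq2), with 0% of all genes called. Without replicate 1, 10 were called lower, against 1.15% of all genes, and without replicate 2, 6 higher, against 0.417%. For the interaction the median was 0.71 (25 higher, 2 lower; 2 at an unadjusted p under 0.05, 0 by DESeq2), with 0% of all genes called; it was -0.20 without replicate 1, and 20 genes were called higher without replicate 2, against 3.32% of all genes.

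The ratio of footprint CPM to RNA CPM in control cells, a value per gene that was not corrected for the untranslated part of the mRNA, spread widely over the 22 genes. Its median was 1.80, against 1.09 over 8012 genes. FAU, which encodes a ubiquitin-like protein fused to a small-subunit protein, had the highest ratio at 18.4 (16.5 to 20.6 over the pairings of libraries). RPS13 followed at 14.9 (12.2 to 18.4) and RPS14, a platform protein, at 13.6 (12.5 to 14.9). RPS12 had the lowest at 0.154 (0.135 to 0.175), then RPS6, the S6 kinase substrate, at 0.382 (0.365 to 0.40) and RPS7 at 0.520 (0.272 to 0.781). All 6 but RPS7 had a pyrimidine run at the start of at least 5 bases, as printed above. So did 19 of the 25 genes of the set with a listed start (76.0%), and ratios were not tested against starts. Since both counts exclude reads with several positions, the part of uniquely placed sequence in these ratios was not tested.

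Footprints over RNA, tested in 1 fit of all 16 libraries, gave 0 called of 22 in each of the 6 comparisons by edgeR and by DESeq2, and 0% of all genes were called by edgeR. At an unadjusted p under 0.05 there was 1 gene in the knockdown, 0 with the construct and 1 in the double modulation. There was 1 for the interaction, 1 for the guide and 3 for the pooled construct. Over all 8012 genes the shares at that p were, in the same order, 3.34%, 2.78%, 4.18%, 2.51%, 4.66% and 3.06%. The medians of the 22 were -0.26 (2 higher, 20 lower) in the knockdown and 0.26 (19 higher, 3 lower) with the construct. In the double modulation the median was -0.57 (5 higher, 17 lower). Without RNA double modulation replicate 1 edgeR called 0 in the knockdown and 0 with the construct, with medians of -0.25 and 0.25. RPS15 had a ratio of 12.4 in control, 14.3 with the construct, 6.64 in the knockdown and 5.67 in the double modulation. In the last, the choice of library moved it between 3.13 and 25.6. This gene was picked after its values were seen, and with all libraries its ratio was not called in any comparison. Over the 22 genes the log2 fold changes of the ratio in the knockdown ran from -0.88 to 0.18. For the guide all 22 were below 0, with a median of -0.61, which became -0.03 without RNA double modulation replicate 1, while 13 were called lower without replicate 2, against 4.65% of all genes. In the double modulation, 1 gene (RPS21) was called higher without RNA replicate 1, against 0.188% of all genes, and the median was 0.59. Without RNA replicate 2, 13 were called lower, against 6.88% of all genes. For the interaction the median was -0.57, which became 0.57 without replicate 1, and 8 were called lower without replicate 2, against 1.03% of all genes. For the pooled construct the median was -0.00, and 10 genes were called higher without replicate 1, against 0.613% of all genes, and 1 (FAU) lower without replicate 2, against 0.187%.

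Partner genes gave few calls in the same footprint comparisons. Of 39 tested large-subunit proteins, 1 passed in the knockdown (RPL13A, -0.50 ± 0.13, edgeR adjusted p = 0.0325), with a median of -0.13 (9 higher, 30 lower). RPL19 (-0.63 ± 0.14, edgeR adjusted p = 0.00212) and RPL36 (-0.43 ± 0.13, 0.0381) fell in the double modulation, in which RPS3 and RPS4X rose. With the pooled construct RPL7A was higher (0.71 ± 0.12, edgeR adjusted p = 8.57e-05) and RPL19 lower (-0.39 ± 0.10, 0.029), and with the construct alone RPL7A was higher too (0.83 ± 0.18, edgeR adjusted p = 0.0423). For the guide with constructs pooled, RPL13A (-0.32 ± 0.10, edgeR adjusted p = 0.0441) and RPL24 (-0.44 ± 0.13, 0.0295) were lower. Among 15 other TOP genes, EEF1G, a subunit of elongation factor 1, rose in the double modulation (0.67 ± 0.16, edgeR adjusted p = 0.00477) and with the pooled construct (0.73 ± 0.12, 1.59e-05). Of these calls DESeq2 made that of RPL19 in the double modulation and those of RPL7A and EEF1G with the pooled construct, and none of the others. None of the 40 tested assembly factors or the 19 tested initiation factors was called by edgeR in footprints in any of the 6 comparisons. At an unadjusted p under 0.05 there were 2 to 4 and 0 to 6 of them per comparison, and DESeq2 called 0. Of all genes, 5.02% to 13.4% were at that p per comparison.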

How the data were processed

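Footprints (ribosomes pelleted through sucrose; molecule labelled polyA RNA) and total RNA were measured in 8 libraries each. The authors deposited raw counts for each gene symbol. Tools named in the submitters' processing notes are STAR 2.5.2a, cutadapt 1.17 and HTSeq, on hg38; settings, strand, annotation and the HTSeq version are not given in the sources used here. Footprint files list genes with a count, and a missing gene was set to 0. HTSeq summary lines were left out.

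Groups came from the titles. Testing used edgeR 4.0.16 (R 4.3.3): filterByExpr (minimum count 10, minimum total 15), TMM and the quasi-likelihood test on the 8 libraries of an assay (4 residual degrees of freedom). The ratio was the difference of the footprint and RNA contrasts in 1 fit of 16 libraries (8 degrees of freedom). Benjamini-Hochberg adjustment ran over all genes, with a threshold of 0.05. CPM was scaled by TMM, and log2 CPM per library used a prior count of 2. Errors are standard errors from the model. The biological coefficient of variation was 6.71% in footprints and 14.3% in total RNA. The tests were tested on simulated data. Starts and positions came from RefSeq tables of GRCh38.p14.

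The genes and lists were chosen with earlier results of these data known. A gene was named with its libraries if it passed in any comparison, or had one of the 3 highest or lowest control ratios or one of the 2 largest footprint changes that did not pass; RPS15, RPS21 and RPS29 in total RNA, RPS18, RPS2 and RPS19 where they did not pass, and RPS15's ratio were added after their values were seen. Isoleucine content and levels per length were planned and are not analysed here. Some other genes are not reported here. Alternatives were other scaling, no filter, DESeq2 1.42.0, a replicate block, thinning, only the groups compared, no chromosome 7 genes, and each library left out.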

Additional observations from a re-analysis of the deposited data

Results flagged for a closer look

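For 7 genes, the construct moved every library one way in eGFP cells and the opposite way in knockdown cells. The share of all genes that did so is not given here, so the 7 cannot be read as particular to this set. For RPS29 the footprint groups nearly met, at 52.6 CPM in knockdown replicate 2 and 52.5 in double modulation replicate 1. With all libraries, edgeR's interaction test of that difference did not pass for any of the 7 genes. In footprints the difference (log2, knockdown cells minus eGFP cells) was 0.64 for RPS16 (edgeR adjusted p = 0.239), 0.43 for RPS9 (0.825) and -0.23 for RPS29 (0.994). In total RNA it was 0.69 for RPS7, 0.37 for RPS24, 0.24 for RPS3A and 0.14 for RPS4X, each with an edgeR adjusted p of 0.998. Those values include double modulation replicate 1, which stood apart in other genes of the set. Without it they were 0.49 for RPS7 (edgeR adjusted p = 0.45), 0.32 for RPS24 (0.366), 0.22 for RPS3A (0.544) and 0.11 for RPS4X (0.771). Without replicate 2 RPS7 was at 0.85 (edgeR adjusted p = 0.0148), and RPS24 at 0.40 (0.0514), RPS3A at 0.25 (0.279) and RPS4X at 0.16 (0.507) did not pass.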

How the results depend on the processing

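Counts of called genes were recomputed for 18 results in 274 alternative settings; 235 stayed within 1.5 times and 39 moved. In footprints, the knockdown count of 2 was 1 with no filter, 0 by DESeq2 and 0 with libraries thinned to the shallowest; the double modulation count of 2 was 1 by DESeq2; the guide count of 0 was 1 with DESeq2's size factors and 1 with scaling that left out ribosomal protein genes. In total RNA, with both double modulation replicates kept, no filter gave 11 in the double modulation, against 0.505% of all genes called higher. It gave 9 for the interaction and 15 for the guide. Their shares over all genes are not given here, so those counts cannot be read as particular to the set. DESeq2 gave 2 for the guide, and fitting only the groups compared gave 1 in the knockdown. Leaving out each library in turn gave, in footprints, 0 in the knockdown, 0 to 2 in the double modulation, 0 to 3 for the pooled construct and 0 to 1 for the guide. In total RNA it gave 0 to 1 in the knockdown (the fit without double modulation replicate 1 was added after the data were seen), 0 to 22 in the double modulation, 0 to 20 for the interaction, 0 to 23 for the guide and 0 to 10 for the pooled construct, and for the ratio 0 to 13, 0 to 8, 0 to 13 and 0 to 10. Where a group kept 1 library, that library was assumed to vary like the other groups. The cause of these moves was not tested.

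The labels do not say whether replicate numbers pair the samples, so the main fit had no block. Between conditions, the gaps between replicates correlated at -0.04 to 0.06 in footprints and -0.42 to 0.36 in total RNA. These values cannot settle whether samples were paired. With the replicate block the guide count in footprints was 2, and the other counts stayed as they were. The 6 named footprint changes kept their sign in every setting run. Footprint precision is limited by depth, at 2402 to 7091 counts for the 28 genes together.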
